A study of Mus musculus with 18 samples.

Results

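The effect of radiation dose rate at a fixed dose was read in whole mouse jejunum by comparing FLASH libraries (ultra-high dose rate) with CONV libraries (conventional dose rate). Membership followed the treatment label, which put 12 of the 18 libraries of the series in the contrast, 7 in FLASH (numbered 1, 2, 4, 5, 6, 7 and 9) and 5 in CONV (numbered 2, 3, 5, 6 and 7). Both groups were C57BL/6 mice, an inbred strain, aged 8 to 12 weeks. Each had its abdomen exposed to a single fraction of 15 Gy, and the jejunum was collected 16 h afterwards. Food and water were freely available to the mice. The 6 control libraries, from untreated mice of the same strain and age range, give the level without irradiation and share the estimate of the spread. Sex, the dose rates themselves and the number of mice behind a library are not given in the sources used here, so the p-values speak only to variation among these libraries, which may in part be technical.

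FLASH delivers a dose in a fraction of the time of a conventional beam and is studied because normal tissue can tolerate it better. The jejunal epithelium renews itself from crypt base stem cells, beside which Paneth cells secrete antimicrobial peptides and niche factors, and radiation activates p53 in crypt cells. Several of the gene groups below answer to systemic signals or to protein stress. Glucocorticoids act through a nuclear receptor that binds DNA. Fasting raises genes of gluconeogenesis and, through PPAR-alpha, genes of fat oxidation. Unfolded protein in the endoplasmic reticulum (ER) or the cytosol raises chaperone genes.

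Expression is given as CPM, a gene's estimated counts relative to its library's size as scaled by TMM. A gene was called when the edgeR quasi-likelihood test gave a Benjamini-Hochberg adjusted p under 0.05, and log2 fold changes are FLASH minus CONV with their SE. Of 16257 genes tested, 3217 were called (19.8%), 1606 higher and 1611 lower in FLASH, which is 9.88% and 9.91% of the genes tested. More than 2-fold differences accounted for 732 of the higher and 615 of the lower calls. FLASH and CONV libraries did not overlap in 1386 genes (8.53% of those tested). With library totals in place of TMM the median over all genes moved on the log2 scale from -0.02 to -0.18 and the calls split into 911 higher and 2816 lower, so directions below are relative to the TMM scaling.

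Libraries differed within the groups too. Library totals spanned 23.1 to 30.2 M estimated counts for FLASH and 19.9 to 27.0 M for CONV. The first principal component of the 12 libraries held 31.2% of their variance and separated the groups without overlap (exact permutation test, two-sided, p = 0.00253, adjusted over 9 library measures 0.0227). FLASH 4 (-12.0) and FLASH 5 (4.84) scored nearest to CONV (-57.4 to -35.7), and FLASH 7 (69.8) and FLASH 2 (66.9) farthest. Mitochondrially encoded transcripts took 5.22% ± 1.11 (SD, n = 7) of FLASH counts and 3.54% ± 0.26 (n = 5) of CONV counts (exact permutation p = 0.0101, adjusted 0.0455). Enterocyte, goblet, Paneth, enteroendocrine, tuft and crypt markers were present, and the stomach and colon genes Muc5ac, Gkn1, Aqp8 and Car1 stayed below 1 CPM in every library. The ileal gene Fabp6 varied widely, from 0 to 247 CPM in FLASH and from 0.0355 to 252.5 CPM in CONV.

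The direction of the calls followed transcript length. Among well-expressed protein-coding genes (mean log2 CPM over 3), 19.3% of the calls in the shortest length quintile were higher in FLASH, against 83.8% in the longest. The slope of log2 CPM on transcript length varied within groups, from -0.337 to 0.273 in FLASH libraries and from -0.432 to 0.0435 in CONV libraries. The difference of the group means did not pass (exact permutation p = 0.104, adjusted 0.233). A fit with an offset for each library's trend on transcript length and GC content gave 46.0% and 46.6% and 1834 calls in all (11.3%), 857 higher (5.27%) and 977 lower (6.01%). In 1496 genes the call stood in the same direction with and without the offset. Counts with the offset are therefore given beside the gene groups, and the part of the length trend in each was not tested.

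**Figure D1:**
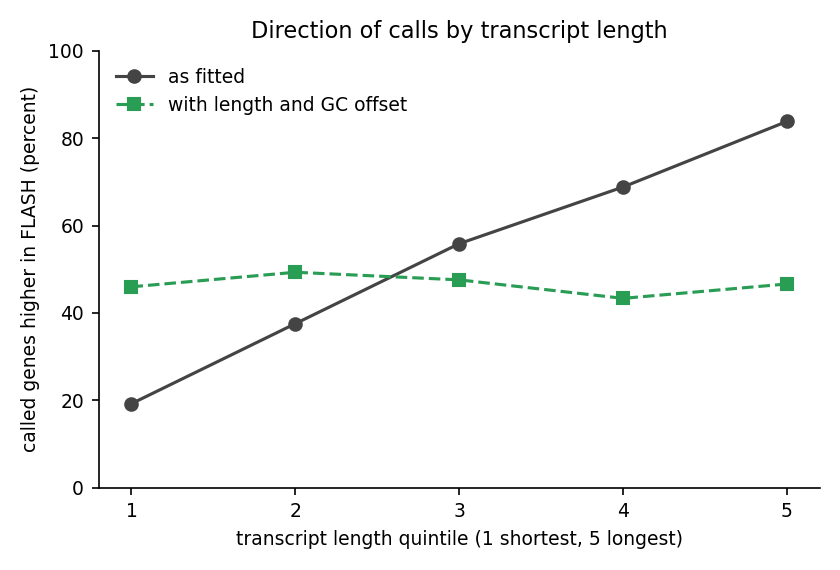
Share of called genes that were higher in FLASH (y axis, percent) in 5 bins of transcript length (x axis), for well-expressed protein-coding genes. The share rose from 19.3% to 83.8% in the fit without an offset (grey) and stayed between 43.4% and 49.3% with the length and GC offset (green).

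Gene groups differed in how many members were called, and several had members in 1 direction only. Among lists of at least 10 tested members, the shares called higher were largest for fasting, glucocorticoid-induced, mitochondrially encoded and metal-handling genes. The shares called lower were largest for Paneth cell, unfolded protein response and heat shock genes. Counts of every list are to be read against the shares over all genes. These were 9.88% higher and 9.91% lower, or 5.27% and 6.01% with the offset. Some genes belong to several lists, such as Angptl4 and Cd36, and are counted in each.

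**Figure D2:**
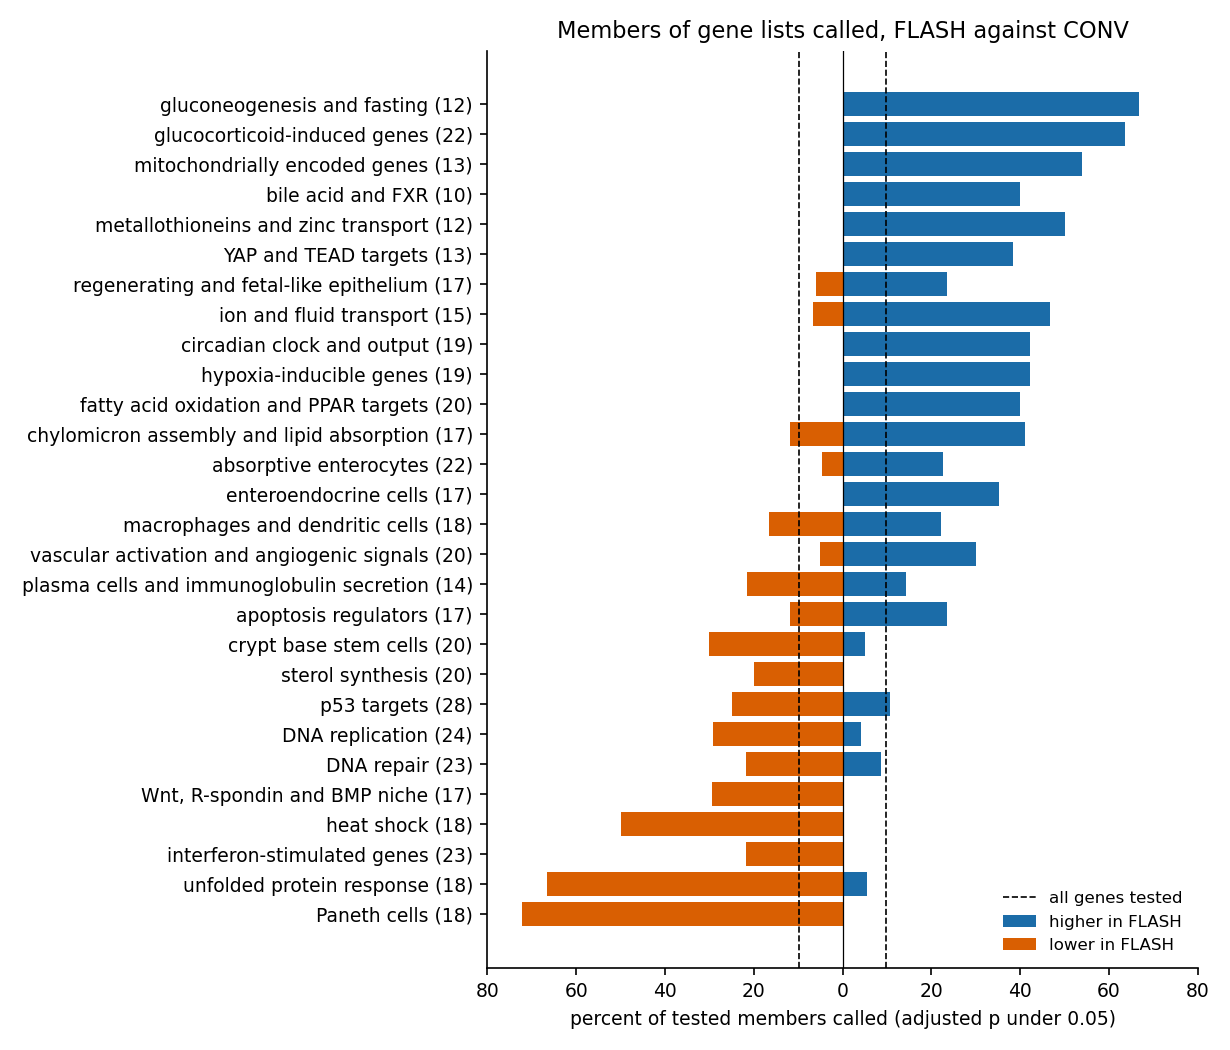
Percent of tested members of each gene list called higher (blue, right) or lower (orange, left) in FLASH than in CONV, for lists with at least 10 members tested and at least 4 called. Numbers tested are in parentheses and dashed lines mark the share over all genes tested, 9.88% higher and 9.91% lower. Glucocorticoid-induced and fasting genes lie at the top of the plot and Paneth cell and unfolded protein response genes at the bottom.

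Glucocorticoid-induced genes were higher in FLASH. Of 22 genes tested, 14 rose, none fell and 8 did not pass, where 9.88% of all genes rose, and the list median was 1.43 against -0.02 over all genes. With the offset 13 rose, where 5.27% of all genes did. Fkbp5, a co-chaperone of the glucocorticoid receptor, stood at 42.5, 21.2, 39.4, 60.2 and 19.7 CPM in CONV 2, 3, 5, 6 and 7. In FLASH its lowest, median and highest values were 154, 433 and 552 CPM, so that every FLASH library lay above every CONV library, and controls held 5.22 to 23.7 CPM. The difference was 3.40 ± 0.41 (adjusted p = 0.000137). Zbtb16, a zinc finger transcription factor, gave the largest rise by the naming rule, 5.10 ± 0.63 (adjusted p = 0.000151). It was between 0.349 and 1.71 CPM in CONV and between 5.42 (FLASH 4) and 62.0 CPM in FLASH, with a median of 46.2, while no control library exceeded 1.25 CPM.

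Sgk1, a kinase that regulates sodium transport, was at 163, 99.95, 92.8, 152 and 118 CPM in CONV 2, 3, 5, 6 and 7. FLASH values ran from 290 (FLASH 4) over a median of 1657 to 2249 CPM, against 41.1 to 167 CPM in controls. The groups did not overlap, and the difference was 3.56 ± 0.47 (adjusted p = 0.000188). The leucine zipper gene Tsc22d3, chosen after its values were seen, rose by 1.29 ± 0.25, the transcription factor Klf15 by 2.20 ± 0.34 and the MAP kinase phosphatase Dusp1 by 1.35 ± 0.34. Angptl4, a secreted inhibitor of lipoprotein lipase, rose by 3.05 ± 0.45, from 17.4 to 75.7 CPM in CONV to 88.3 to 473 CPM in FLASH.

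The Sgk1 promoter is shown because its window held a full glucocorticoid response element, AGAACA and TGTTCT with any 3 bases between them, which was searched on both strands and is its own reverse complement. Windows ran from 250 bases before to 50 after each gene start in RefSeq (GRCm38.p6). Of all 32851 windows 3 held the element (0.00913%), and of the 18 list members with a window only Sgk1 did. The match, in capitals, lay 189 to 175 bases before the gene start, in a stretch at chr10:21993661-21993755 on the plus strand. A match describes the letters and not a bound site.
Sgk1: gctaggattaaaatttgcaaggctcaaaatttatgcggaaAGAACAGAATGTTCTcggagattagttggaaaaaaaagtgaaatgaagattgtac

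Genes of gluconeogenesis and fasting were higher in FLASH as well. Of 12 tested, 8 rose and none fell (median 1.66), where 9.88% of all genes rose. With the offset 7 rose, where 5.27% of all genes did. Pck1, the enzyme that commits carbon to gluconeogenesis, had 102, 107, 138, 152 and 35.2 CPM in CONV 2, 3, 5, 6 and 7. The lowest FLASH library held 684 CPM, the median 1639 and the highest 2777, and controls held 29.3 to 61.5 CPM. No FLASH library reached down to CONV, and the difference of 4.05 ± 0.40 had the smallest unadjusted p of all genes (adjusted p = 4.3e-05). G6pc, which releases glucose from its phosphate, rose by 2.36 ± 0.37, from 46.1 to 265 CPM in CONV to 492 to 1166 CPM in FLASH. Irs2, an adaptor of insulin signalling, rose by 2.09 ± 0.37.

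Of 20 genes of fatty acid oxidation and PPAR targets, 8 rose, none fell and 12 did not pass, where 9.88% of all genes rose. With the offset 7 rose and none fell. Pdk4, a kinase that holds back glucose oxidation, lay between 9.19 and 39.4 CPM in CONV and between 189 and 716 CPM in FLASH (difference 4.12 ± 0.47, adjusted p = 0.000102), against at most 9.46 CPM in controls. The receptor gene Ppara rose by 2.35 ± 0.28, from 10.96 to 18.8 CPM in CONV to 33.1 to 105 CPM in FLASH. Cpt1a, which brings fatty acids to the mitochondrial matrix, rose by 1.69 ± 0.29.

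Of 17 genes of chylomicron assembly and lipid absorption, 7 rose and 2 fell, and with the offset 6 rose and none fell. Over all genes 9.88% rose and 9.91% fell without the offset, so the share of this list that fell was near that of all genes. Risen members with the smallest p were the sterol exporter Abcg8 (1.29 ± 0.17), the triglyceride enzyme Dgat2 (1.47 ± 0.25), the lipid transfer protein Mttp (0.89 ± 0.18) and the fatty acid receptor Cd36 (1.17 ± 0.24). The falls of Fabp2 (-0.82 ± 0.29) and Mogat2 (-0.71 ± 0.22), chosen after their values were seen, were lost with the offset (adjusted p = 0.398 and 0.138). They were also lost in 13 and 9 of the fits that left out 1 library.

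Of 12 metallothionein and zinc transport genes 6 rose, none fell and 6 did not pass, and 4 rose with the offset. Over all genes 9.88% rose, and 5.27% with the offset. Mt1, a metallothionein that binds zinc, was at 120, 39.2, 85.03, 75.03 and 50.05 CPM in CONV 2, 3, 5, 6 and 7. FLASH libraries held 171 to 1047 CPM with a median of 449, all above CONV, and FLASH 1 and FLASH 2 were the highest. Mt1 rose by 2.89 ± 0.55 and its neighbour Mt2 by 3.41 ± 0.76, and reads shared between such close paralogs could be split by the counting. The metal exporter Slc30a10 was uniform in CONV, 22.2 to 26.9 CPM, and held 56.4 to 192 CPM in FLASH (2.19 ± 0.29, adjusted p = 0.000188). Slc30a2 rose by 0.85 ± 0.16.

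**Figure D3:**
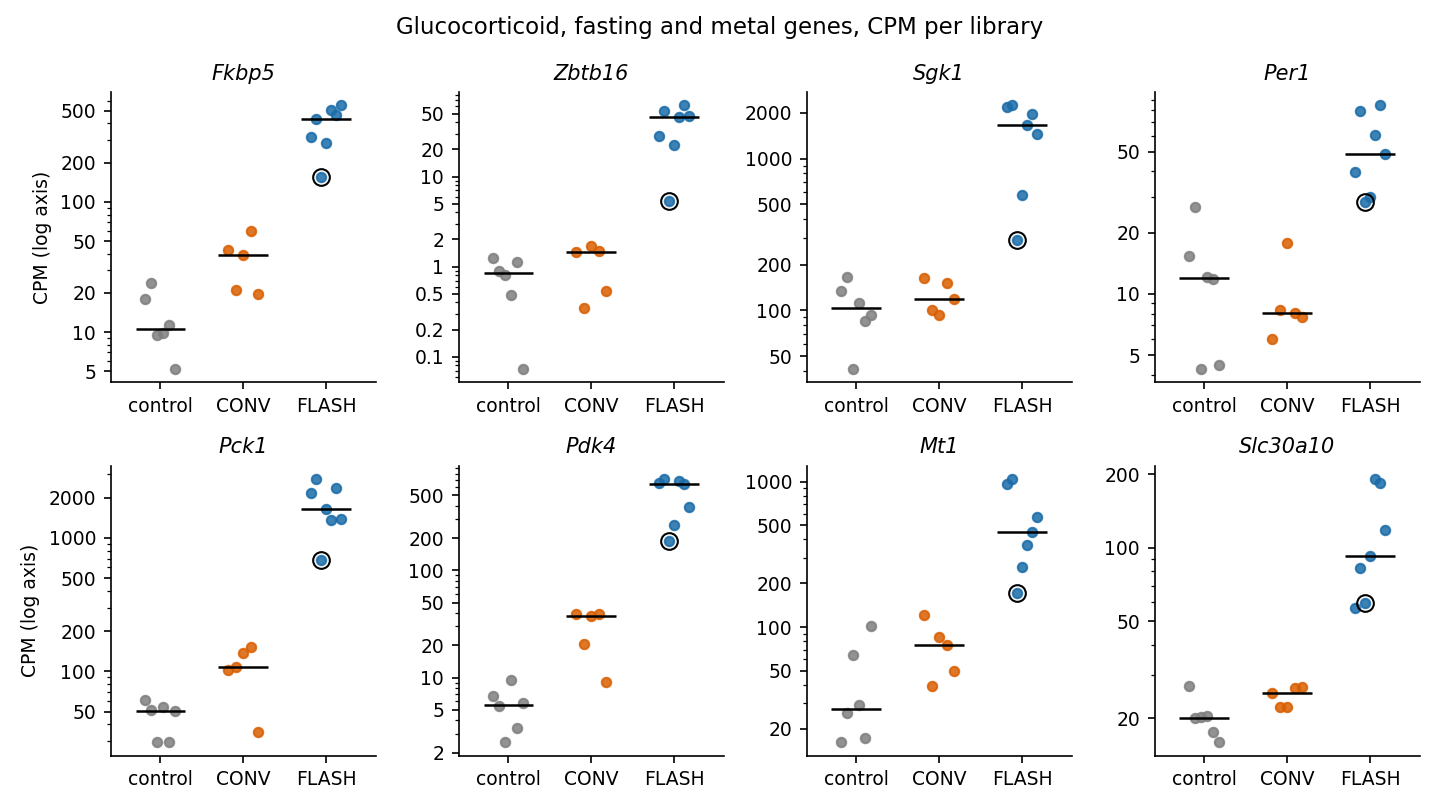
CPM per library (y axes, log scale) of 8 genes in 6 control, 5 CONV and 7 FLASH libraries, with a line at each group median and a ring around FLASH 4. FLASH lay above CONV without overlap in each of the 8 genes, and FLASH 4 was the lowest FLASH library for Fkbp5, Zbtb16, Sgk1, Per1, Pck1, Pdk4 and Mt1.

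Of 19 circadian clock genes 8 rose and none fell, and 5 rose with the offset, where 9.88% and 5.27% of all genes rose. Per1, a clock repressor that glucocorticoids also induce, lay at 5.97, 8.34, 17.8, 8.08 and 7.66 CPM in CONV 2, 3, 5, 6 and 7 and at 28.3 to 84.6 CPM in FLASH, with a median of 48.7. The ranges did not meet, and the difference was 2.47 ± 0.45 (adjusted p = 0.00147). The repressors Cry2 (1.69 ± 0.29), Nr1d1 (1.29 ± 0.26) and Ciart (1.99 ± 0.44) rose too, Ciart with overlap between the groups. Collection times of day are not given in the sources used here. The E-box of the clock, CACGTG, lay in 7.15% of all windows. Counted per gene over any of its windows, 5 of the 16 tested clock genes with a window held it. The E-box of Per1, 166 to 161 bases before its start, is shown in capitals within chr11:69098743-69098828 on the plus strand.
Per1: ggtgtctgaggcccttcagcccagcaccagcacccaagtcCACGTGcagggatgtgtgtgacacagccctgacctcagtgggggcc

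Genes of the unfolded protein response were lower in FLASH. Of 18 tested, 12 fell and 1 rose (median -0.89), where 9.91% of all genes fell. With the offset 7 fell and 1 rose, where 6.01% of all genes fell. Sdf2l1, an ER chaperone partner, was at 57.1, 56.7, 66.8, 77.3 and 109 CPM in CONV 2, 3, 5, 6 and 7. FLASH libraries held 7.21 to 32.2 CPM with a median of 12.7, below every CONV library, and controls 26.2 to 47.1 CPM. Its log2 level fell by 2.22 ± 0.29 (adjusted p = 0.000188). Creld2, an ER stress-induced disulfide isomerase, fell by 1.77 ± 0.25, from 49.7 to 93.6 CPM to 11.9 to 44.9 CPM. Manf, a secreted ER stress factor, fell by 1.33 ± 0.23, and its range of 129 to 251 CPM in CONV lay above that of FLASH, 51.9 to 112 CPM. The disulfide isomerase Pdia6 fell by 1.04 ± 0.17. The 1 member that rose, Herpud1, acts in ER-associated degradation and was chosen after its values were seen. It rose by 1.29 ± 0.26, from 105 to 198 CPM in CONV to 201 to 623 CPM in FLASH.

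The ER stress response element, CCAAT and CCACG with any 9 bases between them, lay on either strand in 39 of the 32851 windows (0.119%). Counted per gene over any of its windows, 7 of the 16 members of this group with a window held it. A count per gene is not on the scale of the share of windows. The 7 were Hspa5, Hsp90b1, Pdia6, Creld2, Calr, Dnajc3 and Syvn1. The first 6 of these genes fell, and Syvn1 did not pass (-0.21 ± 0.24, adjusted p = 0.581). Apart from Pdia6 and Creld2 they were chosen for the element after their values were seen. The matches, in capitals, are shown within their promoter for the genes where the stretch met no annotated exon, Creld2 (chr15:88819480-88819578, plus strand), Calr (chr8:84847035-84847133, minus strand) and Dnajc3 (chr14:118937787-118937885, plus strand). Creld2 and Calr carry it in the reverse orientation. For Hspa5 and Pdia6 the match alone is given.
Creld2: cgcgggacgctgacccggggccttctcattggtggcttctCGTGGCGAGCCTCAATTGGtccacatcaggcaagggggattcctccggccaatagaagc
Calr: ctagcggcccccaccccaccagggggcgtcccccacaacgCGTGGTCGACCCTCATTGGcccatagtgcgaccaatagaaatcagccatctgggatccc
Dnajc3: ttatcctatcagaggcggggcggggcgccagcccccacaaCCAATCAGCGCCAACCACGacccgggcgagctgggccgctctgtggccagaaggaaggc
Hspa5: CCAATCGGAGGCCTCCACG
Pdia6: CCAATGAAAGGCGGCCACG

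Hspa5, the main ER chaperone, fell by 0.96 ± 0.22 from 592 to 879 CPM in CONV to 248 to 683 CPM in FLASH. FLASH 4 held the 683 CPM, within the CONV range, and the next FLASH library 374 CPM. The ER chaperones Hsp90b1 (-0.87 ± 0.22) and Calr (-0.86 ± 0.17) and the co-chaperone Dnajc3 (-0.37 ± 0.11) fell, and these 3 calls were lost with the offset (adjusted p = 0.0895, 0.0563 and 0.222). The call on Dnajc3 was also lost in 8 of the fits that left out 1 library. Without FLASH 4, 13 of the 18 members fell and 1 rose.

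Heat shock genes, most of them chaperones and their partners, were lower or did not pass. Of 18 tested, 9 fell and none rose (median -0.60), and 8 fell with the offset, where 9.91% and 6.01% of all genes fell. Chordc1, a co-chaperone of Hsp90, was at 54.98, 56.1, 61.8, 56.8 and 71.0 CPM in CONV 2, 3, 5, 6 and 7 and at 5.94 to 37.1 CPM in FLASH, with a median of 13.9. Its log2 level fell by 1.997 ± 0.34 (adjusted p = 0.00104), and controls held 26.3 to 41.6 CPM. Hspe1, the mitochondrial co-chaperonin, fell by 1.60 ± 0.27, from 62.2 to 110.3 CPM in CONV to 18.4 to 41.9 CPM in FLASH. The Hsp90 activator Ahsa1 (-1.03 ± 0.15) and the adaptor Stip1 (-0.91 ± 0.16) fell. Serpinh1, a collagen chaperone outside the list, fell by 1.90 ± 0.33.

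**Figure D4:**
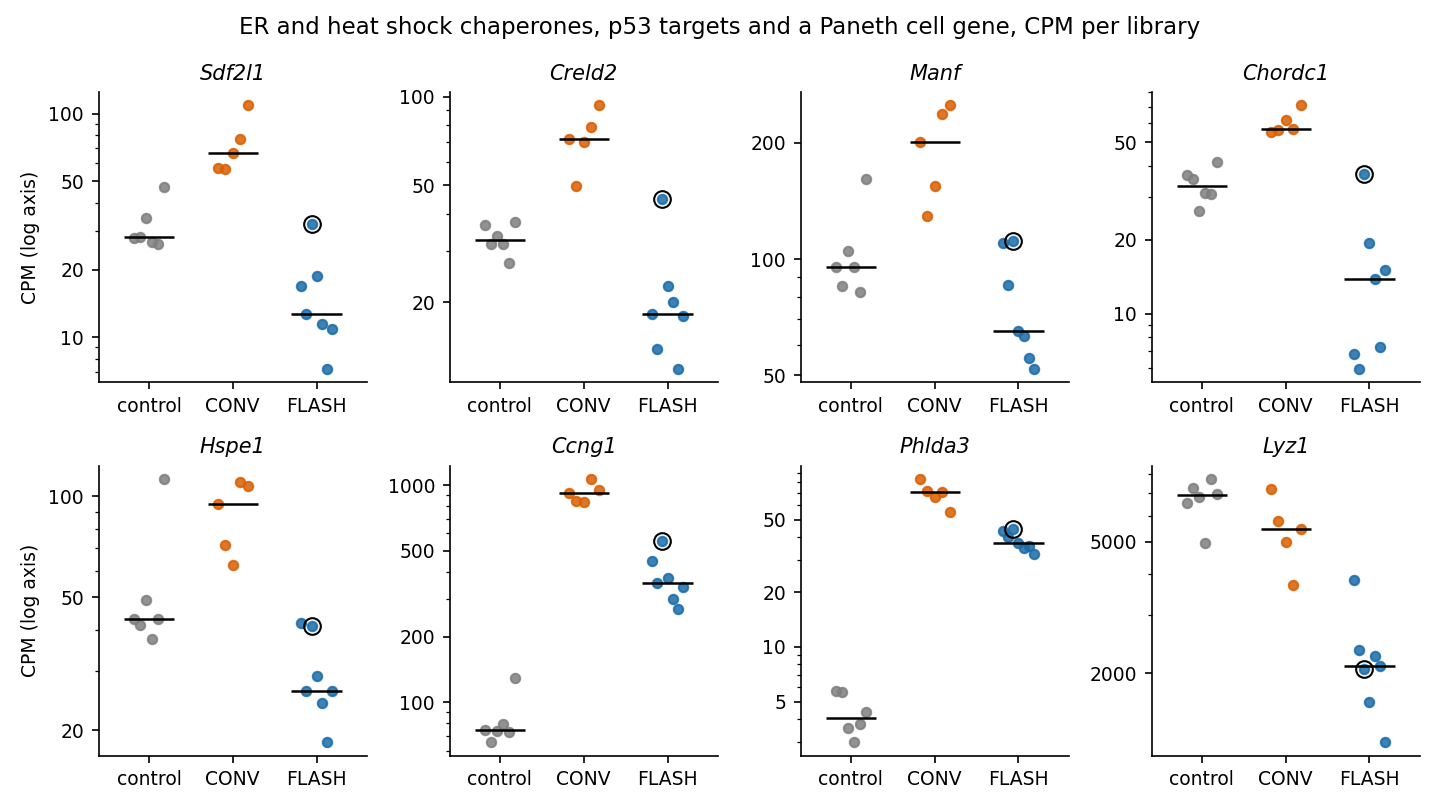
CPM per library (y axes, log scale) of 8 genes in 6 control, 5 CONV and 7 FLASH libraries, with a line at each group median and a ring around FLASH 4. The ER and heat shock genes Sdf2l1, Creld2, Manf, Chordc1 and Hspe1 and the p53 targets Ccng1 and Phlda3 were lower in FLASH than in CONV without overlap, while the Lyz1 ranges overlapped at FLASH 1.

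Paneth cell genes were lower in FLASH, and of all lists theirs had the largest share of members that fell. Of 18 tested, 13 fell and none rose (median -1.10), but with the offset 6 fell, where 9.91% and 6.01% of all genes fell. Summed CPM of the list overlapped, from 15140 to 64730 in FLASH (median 26210) and from 31380 to 57110 in CONV (median 36630). The members were short, with a median transcript length of 564 bases, within the range of the shortest length quintile (204 to 2004 bases). Fewer cells of a type and less RNA per cell cannot be told apart in bulk tissue. Lyz1, the Paneth cell lysozyme, was at 7234, 5785, 4990, 3706 and 5470 CPM in CONV 2, 3, 5, 6 and 7 and ran from 1234 over a median of 2096 to 3834 CPM in FLASH. Only FLASH 1 lay above the lowest CONV library, and Lyz1 fell by 1.30 ± 0.23 (adjusted p = 0.00116; 0.0316 with the offset). The protease Mmp7, which activates defensins, fell by 1.42 ± 0.19, from 264 to 382 CPM in CONV to 68.5 to 179 CPM in FLASH, against 173 to 263 CPM in controls. The defensin Defa17 fell by 1.29 ± 0.24. Defa3 fell by 1.16 ± 0.23 and lost its call with the offset (adjusted p = 0.0538). Defensin genes are near-identical copies, so their counts are uncertain one by one. Of 13 goblet cell genes 1 fell and none rose, near the 9.91% of all genes that fell, and none was called with the offset. The gene that fell was the mucin-folding isomerase Agr2 (-1.10 ± 0.23, adjusted p = 0.0551 with the offset).

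Crypt base stem cell genes showed more falls than rises. Of 20 tested, 6 fell and 1 rose, where 9.91% of all genes fell and 9.88% rose. With the offset 5 fell and none rose, where 6.01% of all genes fell. The list median was -0.13. Summed CPM of the list overlapped, from 363 to 522 in FLASH and from 359.5 to 534 in CONV. Ascl2, a transcription factor that maintains stem cell identity, was at 2.46, 4.46, 3.31, 1.63 and 5.43 CPM in CONV 2, 3, 5, 6 and 7 and between 0.355 and 2.11 CPM in FLASH. It fell by 1.89 ± 0.41 (adjusted p = 0.00433), with FLASH 4 above the lowest CONV library. Cdca7 fell by 0.79 ± 0.16 and the receptor Tnfrsf19 by 1.06 ± 0.31, the latter not without CONV 3 (-0.87, adjusted p = 0.0729). The call on Cdca7 was lost with the offset (adjusted p = 0.0958). The rise of Prom1 (0.45 ± 0.15), chosen after its values were seen, was lost with the offset and in 6 of the fits that left out 1 library. The stem cell receptor Lgr5 held 1.07 to 3.96 CPM in FLASH and 1.31 to 4.25 CPM in CONV (-0.24 ± 0.38, adjusted p = 0.701), and 3.54 to 16.7 CPM in controls. Olfm4 held 13.4 to 96.4 CPM in FLASH and 14.1 to 80.3 CPM in CONV (0.66 ± 0.48, adjusted p = 0.347), and at least 522 CPM in controls.

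Of 17 Wnt, R-spondin and BMP genes of the niche, 5 fell and none rose (3 and 0 with the offset). Over all genes 9.91% fell, and 6.01% with the offset. Among the 5 were the BMP antagonist Grem1 (-2.01 ± 0.53), the ligands Wnt3 (-1.35 ± 0.37) and Wnt4 (-0.84 ± 0.26) and the R-spondin Rspo3 (-1.16 ± 0.33). In CONV 6 Grem1 (3.52 CPM), Wnt3 (1.40 CPM) and Rspo3 (0.767 CPM) lay within or below the FLASH range. Without CONV 3 the calls on Grem1 (-1.54, adjusted p = 0.0521), Rspo3 (-0.88, adjusted p = 0.0739) and Wnt4 were lost. With the offset the call on Rspo3 was lost (adjusted p = 0.112). That on Wnt4 was also lost without CONV 7 or FLASH 9.

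Of 17 genes of the regenerating and fetal-like epithelium 4 rose and 1 fell (4 and 0 with the offset). Over all genes 9.88% rose and 9.91% fell, and 5.27% and 6.01% with the offset. Ccn2, a matrix protein and YAP target, rose by 1.85 ± 0.29, from 2.01 to 4.40 CPM in CONV to 5.33 to 15.7 CPM in FLASH without overlap. The keratins Krt18 (0.85 ± 0.16) and Krt7 (0.62 ± 0.20) and the annexin Anxa1 (1.11 ± 0.31) rose, and Anxa3 (-0.62 ± 0.20, chosen after its values were seen) fell. Krt7 and Anxa3 lost their calls with the offset, and in 7 and 8 of the fits that left out 1 library, and Anxa1 lost its call without CONV 7 (0.98, adjusted p = 0.055). Clu, the marker of revival stem cells, did not differ in fitted level (-0.00 ± 0.69), with 36.4 to 96.2 CPM in FLASH and 19.6 to 119 CPM in CONV.

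A trio of gasdermin genes of the Gsdmc cluster, pore-forming proteins of the gut epithelium, were higher in FLASH. Gsdmc4 was at 1.47, 0.663, 0.893, 1.76 and 0.355 CPM in CONV 2, 3, 5, 6 and 7 and ran from 1.32 (FLASH 4) over a median of 20.1 to 33.0 CPM in FLASH. Controls held 77.3 to 317 CPM, above every irradiated library. FLASH 4 lay within CONV, and the other FLASH libraries held at least 10.6 CPM. The differences were 4.19 ± 0.64 for Gsdmc4, 3.998 ± 0.67 for Gsdmc2 and 3.51 ± 0.88 for Gsdmc3 (4.27 without CONV 6). These genes are close copies whose reads the counting could split. They are 3 of the 6 gasdermins tested, and with the offset 3 of the 6 rose and none fell.

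The p53 targets had calls in both directions. Of 28 tested, 7 fell, 3 rose and 18 did not pass (5 and 3 with the offset). Over all genes 9.91% fell and 9.88% rose, so without the offset the share of p53 targets that rose was near that of all genes. Ccng1, a cyclin induced by p53, was at 917, 848, 838, 1071 and 947 CPM in CONV 2, 3, 5, 6 and 7, and at 269 to 556 CPM in FLASH with a median of 356. Both lay above controls, at 65.4 to 130.01 CPM, and Ccng1 fell by 1.29 ± 0.19 from CONV to FLASH (adjusted p = 0.000364). Phlda3, a repressor of Akt, fell by 0.87 ± 0.16, from 55.3 to 83.9 CPM in CONV to 32.2 to 44.1 CPM in FLASH, with controls at most 5.69 CPM. Psrc1, a microtubule-binding protein, fell by 1.02 ± 0.14. Pmaip1, a pro-apoptotic BH3-only gene, rose by 2.07 ± 0.47, from 74.9 to 90.0 CPM in CONV to 77.7 to 783 CPM in FLASH, where FLASH 4 alone lay within the CONV range. Sesn1 (1.45 ± 0.35) and Plk3 (0.73 ± 0.21), chosen after their values were seen, rose. Plk3 lost its call with the offset and without CONV 3 or CONV 5. Cdkn1a, the cell cycle inhibitor, held 412 to 479 CPM in CONV and 415 to 962 CPM in FLASH and did not pass (0.59 ± 0.21, adjusted p = 0.0575). Mdm2, which degrades p53, held 93.7 to 158 CPM in CONV and 75.5 to 119.8 CPM in FLASH (-0.30 ± 0.17, adjusted p = 0.225).

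Of 24 replication genes 7 fell and 1 rose (5 and 1 with the offset), where 9.91% of all genes fell and 9.88% rose. The 1 that rose, Rrm2, encodes the small subunit of ribonucleotide reductase, with 37.2, 25.2, 25.6, 65.7 and 33.4 CPM in CONV 2, 3, 5, 6 and 7 and 60.4 to 338 CPM in FLASH. Only FLASH 4 fell below the highest CONV library, and Rrm2 rose by 2.53 ± 0.34 (adjusted p = 0.000205). The primase Prim1 (-0.94 ± 0.21) and the origin factors Gins2 (-0.95 ± 0.22) and Cdc6 (-0.99 ± 0.25) fell. Outside the list, Ccne2, a cyclin of entry into S phase, fell by 1.82 ± 0.25, from 24.7 to 43.4 CPM in CONV to 7.06 to 13.4 CPM in FLASH. Of 22 mitosis genes 2 fell, near the 9.91% of all genes that fell. These were Aurka (-0.71 ± 0.18) and Bub1 (-0.65 ± 0.18), and with the offset none fell. Bub1 was lost without CONV 7 too (-0.57, adjusted p = 0.0628). Mki67, a proliferation marker, held 13.4 to 47.8 CPM in FLASH and 10.4 to 29.7 CPM in CONV (0.58 ± 0.40, adjusted p = 0.324; -0.07 with the offset).

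Of 23 DNA repair genes 5 fell and 2 rose, and with the offset 5 fell and none rose. Over all genes 9.91% fell and 9.88% rose without the offset, so the share of repair genes that rose was near that of all genes. The scaffold Xrcc1 fell by 1.02 ± 0.22, from 13.8 to 18.8 CPM in CONV to 5.12 to 14.6 CPM in FLASH. The end-joining gene Xrcc6 fell by 0.78 ± 0.19, the checkpoint kinase Chek2 by 1.07 ± 0.23 (adjusted p = 0.0642 with the offset) and Exo1 by 0.81 ± 0.24 (adjusted p = 0.0695 without CONV 7). Xpc (0.68 ± 0.19) and Brca2 (0.86 ± 0.30) rose without the offset. Xpc was lost without CONV 6 and Brca2 in 13 of the fits that left out 1 library. Exo1, Xpc and Brca2 were chosen after their values were seen.

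Among 17 apoptosis regulators 4 rose and 2 fell, where 9.88% of all genes rose and 9.91% fell. Birc3, an inhibitor of apoptosis, rose by 1.21 ± 0.22, from 19.6 to 42.9 CPM in CONV to 36.8 to 88.0 CPM in FLASH. The BH3-only genes Bcl2l11 (1.29 ± 0.26) and Bmf (1.03 ± 0.21) and the survival gene Bcl2 (0.85 ± 0.21) rose, and the BH3-only gene Bad fell by 1.46 ± 0.33, from 45.6 to 78.5 CPM to 10.6 to 36.2 CPM. With the offset only Birc3, Bcl2l11 and Bad of these were called. The list median was 0.04 and turned to -0.12 with library totals. Bcl2 was chosen after its values were seen.

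Interferon-stimulated genes were lower in FLASH where they differed. Of 23 tested, 5 fell and none rose (median -0.64), where 9.91% of all genes fell. With the offset 4 fell and none rose, where 6.01% of all genes fell. The median summed CPM of the list was 587 in FLASH, 753 in CONV and 1201 in controls. Cxcl10, a chemokine that draws T cells, was at 5.34, 4.43, 3.98, 2.30 and 15.7 CPM in CONV 2, 3, 5, 6 and 7 and at 0.533 to 1.90 CPM in FLASH. It fell by 2.32 ± 0.45 (adjusted p = 0.00227) and by 1.66 without CONV 7 (adjusted p = 0.0119). CONV 7 was the highest irradiated library for Cxcl10, Isg15 and Mx2. Mx2 (-1.29 ± 0.31), annotated as a polymorphic pseudogene, the antiviral gene Isg15 (-1.49 ± 0.46) and the GTPase Iigp1 (-0.65 ± 0.22, chosen after its values were seen) fell. The calls on Isg15 and Iigp1 were lost in 5 and 12 of the fits that left out 1 library, CONV 7 among them, and that on Iigp1 with the offset as well. Outside the list, the apolipoprotein L gene Apol10a fell by 3.68 ± 0.53, from 21.6 to 291 CPM in CONV to 4.70 to 17.9 CPM in FLASH, and by 2.78 without CONV 7. Controls held 336 to 724 CPM.

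The interferon-stimulated response element, a pair of GAAA with any 2 bases between them, lay on either strand in 3.44% of all windows. Counted per gene over any of its windows, 10 of the 15 members of this group with a window held it. The element of Cxcl10, 213 to 204 bases before its start, is in capitals within chr5:92349053-92349139 on the minus strand.
Cxcl10: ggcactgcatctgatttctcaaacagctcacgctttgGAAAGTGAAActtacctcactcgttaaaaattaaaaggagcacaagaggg

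Immune cell lists varied in their share of calls, where 9.88% of all genes rose and 9.91% fell. Of 14 plasma cell and immunoglobulin secretion genes 2 rose and 3 fell, and of 5 mast cell and eosinophil genes 2 rose and none fell. With the offset 1 plasma cell gene rose and 3 fell, and 2 mast cell and eosinophil genes rose and none fell. Of 18 macrophage and dendritic cell genes 4 rose (among them the mannose receptor Mrc1, 1.26 ± 0.19, Flt3 and Cd163) and 3 fell (Lyz2, -1.14 ± 0.30, Cd68, -0.75 ± 0.21, and Clec9a). Mrc1 held 5.28 to 8.40 CPM in CONV and 13.2 to 22.0 CPM in FLASH. Flt3, Cd163 and Clec9a, chosen after their values were seen, stayed below 10 CPM and were lost in 3, 6 and 12 of the fits that left out 1 library. With the offset 3 macrophage and dendritic cell genes rose and 1 fell, and the calls on Cd163, Cd68 and Clec9a were lost. Of 19 T and NK cell genes 1 rose and none fell (2 and 0 with the offset). The T cell receptor subunit gene Cd3e did not pass (0.61 ± 0.27, adjusted p = 0.116). None of 9 B cell genes was called with or without the offset, and Cd79a held at most 6.38 CPM in either irradiated group. 

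Vascular genes bear on the title of the series, which names vascular function. Of 22 endothelial identity genes 2 rose and none fell (median 0.56), close to the 9.88% of all genes called higher, and none was called with the offset. The endothelial receptor Robo4 was at 3.77, 4.74, 6.66, 3.75 and 4.72 CPM in CONV 2, 3, 5, 6 and 7 and at 7.79 to 23.3 CPM in FLASH, without overlap (1.40 ± 0.43, adjusted p = 0.0294; 1.02 with the offset, adjusted p = 0.0788). The sphingosine phosphate receptor S1pr1 lay between 5.01 and 6.63 CPM in CONV and between 7.93 and 26.9 CPM in FLASH (1.35 ± 0.47, adjusted p = 0.0496; 1.54 with the offset, adjusted p = 0.0992). Robo4 was lost without CONV 2, 3, 6 or 7 or without FLASH 7 (adjusted p 0.0561 to 0.0702), and S1pr1 in 11 of the fits that left out 1 library. FLASH 7 was the highest FLASH library for Robo4, S1pr1, Pecam1, Kdr, Plvap and Vwf. Pecam1 (0.53 ± 0.37, adjusted p = 0.335), Kdr (0.58 ± 0.51, 0.448), Plvap (0.69 ± 0.36, 0.184) and Vwf (1.21 ± 0.65, 0.194) did not pass, and their FLASH and CONV ranges overlapped. Summed CPM of the list ran from 184 to 288 in CONV, from 247.5 to 578 in FLASH and from 138 to 1140 in controls. The control range thus spanned both irradiated groups, as it did for Robo4 (2.96 to 24.7 CPM) and S1pr1 (4.16 to 37.6 CPM).

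**Figure D5:**
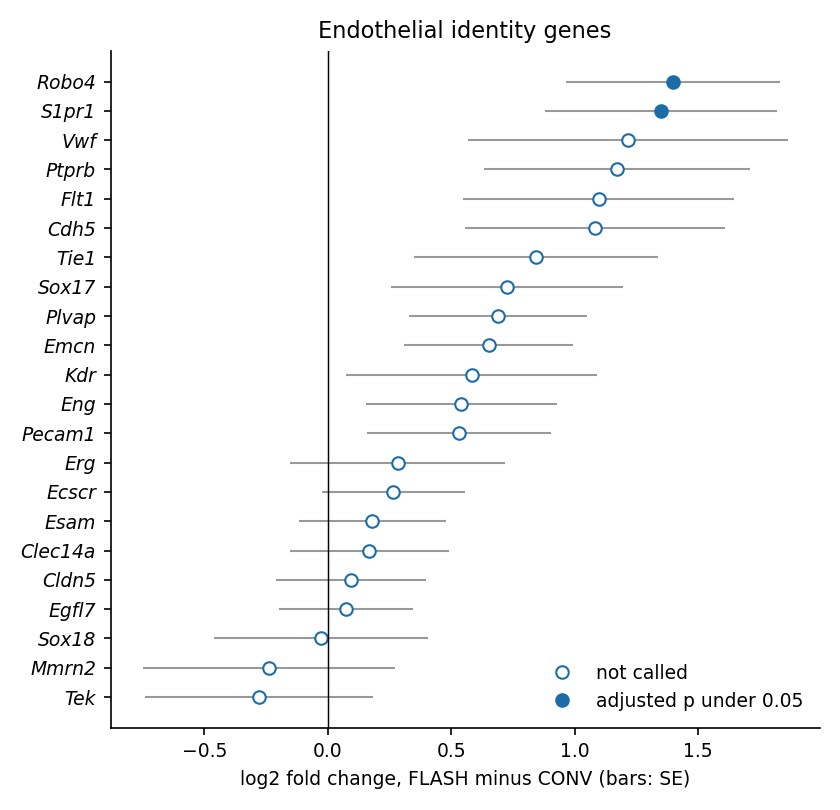
Log2 fold change FLASH minus CONV (x axis, bars show SE) of 22 endothelial identity genes, ordered by value, with filled points for adjusted p under 0.05. Of the 22 points 19 lie right of 0 with wide errors, and Robo4 and S1pr1 alone are filled.

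Of 20 genes of vascular activation and angiogenic signals 6 rose and 1 fell (4 and 0 with the offset). Over all genes 9.88% rose and 9.91% fell, and 5.27% and 6.01% with the offset. Plat, tissue plasminogen activator, was at 5.86, 4.71, 5.44, 5.87 and 4.47 CPM in CONV 2, 3, 5, 6 and 7 and at 10.7 to 81.5 CPM in FLASH, with a median of 56.5. The ranges did not overlap, and Plat rose by 3.14 ± 0.48 (adjusted p = 0.000501). The vasoconstrictor peptide gene Edn1 rose by 1.499 ± 0.37 and Angptl4 as given above, while Vegfb fell by 0.86 ± 0.22 (adjusted p = 0.0956 with the offset). Angptl4 is also counted among the glucocorticoid-induced genes and the PPAR targets. Of 19 genes of capillary, artery, vein and lymphatic endothelium 2 rose and 1 fell, where 9.88% of all genes rose and 9.91% fell. With the offset 3 of the 19 rose and 1 fell. The genes named next are those called without the offset. The peptide gene Apln (1.69 ± 0.29) and Cd36 rose, and the lymphatic and epithelial glycoprotein gene Pdpn (-1.03 ± 0.22) fell. Cd36 is also counted among the genes of lipid absorption. Smooth muscle (15 genes) and fibroblast (18 genes) lists had no call, and 1 member of each fell with the offset.

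Of 15 ion and fluid transport genes 7 rose and 1 fell (3 and 1 with the offset). Over all genes 9.88% rose and 9.91% fell, and 5.27% and 6.01% with the offset. The anion exchanger Slc26a3 rose by 0.87 ± 0.15, from 115 to 194 CPM in CONV to 233 to 337 CPM in FLASH, and Clca4a by 1.16 ± 0.22. The 1 that fell, the potassium channel subunit Kcne3, held 12.6 to 28.2 CPM in CONV, 5.98 to 10.5 CPM in FLASH and 27.7 to 75.0 CPM in controls (-1.21 ± 0.23). Of 22 absorptive enterocyte genes 5 rose and 1 fell, the fatty acid binding protein Fabp2 given above (5 and 0 with the offset). The brush border enzyme Mgam rose by 1.18 ± 0.28 and the peptide transporter Slc15a1 by 0.78 ± 0.21. Of 17 enteroendocrine genes 6 rose and none fell (3 and 0 with the offset), among them the prohormone convertase Pcsk1 (1.42 ± 0.23, from 17.8 to 36.0 CPM to 47.3 to 119.8 CPM). The granins Chga (0.81 ± 0.22) and Chgb (0.96 ± 0.27) rose, Chgb not with the offset nor without CONV 2, and FLASH 1 held the lowest FLASH value of both.

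Xenobiotic and bile acid genes rose in part. Of 14 cytochrome P450 genes 3 rose, and 8 did with the offset, and none fell in either fit. Over all genes 9.88% rose, and 5.27% with the offset. Cyp2b10, a target of the nuclear receptor CAR, rose by 1.94 ± 0.40, from 231 to 669 CPM in CONV to 977 to 2190.4 CPM in FLASH, against at most 94.1 CPM in controls. Por, the electron donor of these enzymes and no member of the list, rose by 1.99 ± 0.23 (adjusted p = 0.000102), and the bile acid receptor Nr1h4 by 1.81 ± 0.31. Of 19 hypoxia-inducible genes 8 rose and none fell, and 3 rose with the offset. Ndrg1 rose by 2.33 ± 0.31, from 80.9 to 161 CPM in CONV to 263 to 948 CPM in FLASH.

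Of 13 mitochondrially encoded genes tested, 7 rose and none fell, with a list median of 0.88, where 9.88% of all genes rose. With the offset 3 rose, while the fold of mt-Nd1 was larger, 1.69 ± 0.48 (adjusted p = 0.0293), than the value without it given next. The complex I gene mt-Nd1 was at 3107, 2557, 3224, 3948 and 2939 CPM in CONV 2, 3, 5, 6 and 7 and at 4989 to 8274 CPM in FLASH, without overlap (1.10 ± 0.21, adjusted p = 0.00185). The ATP synthase gene mt-Atp8 rose by 0.98 ± 0.20 and mt-Nd6 by 1.02 ± 0.26. None of the 25 listed nuclear respiratory chain genes and none of the 25 listed ribosomal protein genes was called, with or without the offset.

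Other genes stood out by size or by p. Among the 15 largest rises were the hyaluronidase Cemip (3.55 ± 0.42), the kinase Pak6 (2.92 ± 0.39), the xylosyltransferase Xylt1 (2.90 ± 0.47), the transcription factor Foxq1 (2.78 ± 0.34) and the anion exchanger Slc26a4 (2.74 ± 0.44). The intestinal phosphatase Akp3 rose by 4.002 ± 0.92 and by 2.27 without FLASH 9, which held 83.8 CPM against at most 12.0 CPM in the other FLASH libraries. Among the smallest p were Ccser2 (1.65 ± 0.17), the kinase Mapk6 (2.13 ± 0.22), the fucosyltransferase Fut4 (2.42 ± 0.27), Tmem87b (1.22 ± 0.14), Suco (1.47 ± 0.17) and the transporter Slc16a6 (1.47 ± 0.18). Mapk6 was at 117 to 277 CPM in CONV and 446 to 919.9 CPM in FLASH. Among the 15 largest falls were Apol7c (-2.03 ± 0.41), Pagr1a (-2.15 ± 0.47), Batf2 (-1.84 ± 0.37), Ifi27l2a (-1.79 ± 0.37), Cox6b2 (-1.75 ± 0.28), Pdf (-1.71 ± 0.38), Josd2 (-1.65 ± 0.24) and Alpk1 (-1.64 ± 0.33).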

How the data were processed

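RNA from whole jejunum (250 ng) was made into stranded mRNA libraries and read as single-end 100 bp reads, per the labels. The deposited expected counts per gene, which need not be whole, came from STAR and Salmon with mm10, per the submitters' processing notes, with versions not given in the sources used here. The log2 values were made by the authors from size-scaled counts, on 19193 genes they kept, and served only as an alternative. The notes also name edgeR 3.40.2 and limma 3.54.2.

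Expected counts were rounded to whole numbers, since edgeR takes counts. All 18 libraries entered 1 fit with edgeR 4.0.16 in R 4.3.3 (filterByExpr, TMM, robust quasi-likelihood), tested on FLASH minus CONV and adjusted by Benjamini-Hochberg over 16257 genes. SE is the absolute log2 fold change over the root of F. IDs without a symbol held 0.00183% of counts. The fit was tested on simulated data, where it recovered 37% of 2-fold and 86% of 4-fold changes among 16257 genes, with 3.15% of calls false. Library pairs all differed beyond sampling noise, so none was counted as a duplicate.

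Gene lists and members were chosen with earlier results of these data known. Named genes were the 15 largest non-overlapping rises and falls with at least 5 CPM, up to 4 members of each list by smallest p, the 10 smallest p and a set of markers. Library measures were compared by exact permutation over 792 splits, whose smallest p is 0.00126. Same-numbered libraries were checked for shared deviations before the blocked fit. Promoter windows and sequences are from RefSeq (GRCm38.p6), searched on both strands for 10 motifs. Alternatives covered scaling, filtering, the tool (limma 3.58.1, DESeq2 1.42.0, sva 3.50.0), a length and GC offset, a block on library number, and leaving out each library. Other tools were Python 3.11.15, numpy 2.4.6, pandas 2.3.3, scipy 1.17.1 and matplotlib 3.10.9. Some list members are counted but not reported here by name.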

Additional observations from a re-analysis of the deposited data

Results flagged for a closer look

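In 24 of 324 groups of 5 CONV or 7 FLASH libraries, 1 library stood apart from the rest by Dixon's criterion (7.41%), where chance gives about 1 in 20. No explanation was tested for these values.

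FLASH 4 was the library apart in 7 genes. It was low in Zbtb16 (5.42 CPM, the others 22.5 to 62.0), Gsdmc4 (1.32, others 10.6 to 33.0) and Gsdmc2 (1.19, others 7.03 to 24.5). It was high in the chaperone genes Hspa5 (683, others 248 to 374), Hsp90b1 (512, others 204 to 285), Dnajc3 (151, others 105 to 118) and Stip1 (73.7, others 38.3 to 48.0). FLASH 1 was low in Chga (50.5) and Chgb (67.8), FLASH 2 in Pdf (0.470) and FLASH 6 in mt-Nd6 (9.99 CPM).

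Among CONV libraries, CONV 6 was low in Rspo3 (0.767), Vegfb (3.66) and Akp3 (0.226), and high in Ciart (2.12 CPM) and on the third principal component (31.0, others -37.5 to -19.0). CONV 7 was low in Pck1 (35.2, others 102 to 152) and high in Apol7c (54.1, others 14.7 to 21.0), Mx2 (11.2, others 3.75 to 5.06) and the immunoglobulin share (0.371% of counts, others 0.111% to 0.177%). CONV 2 was low in Alpk1 (13.4), Clec9a (0.105 CPM) and total counts (19.9 M, others 25.9 to 27.0), and CONV 3 in Nr1h4 (25.2 CPM, others 32.5 to 35.7).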

How the results depend on the processing

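The 3217 calls (1606 higher, 1611 lower) became 1347 (732, 615) above a 2-fold change, 1834 (857, 977) with the length and GC offset, and 5988 (3138, 2850) with 1 surrogate variable. Library totals gave 911 higher and 2816 lower, and testing 33352 genes without a filter gave 1038 lower. Leaving out 1 library gave 2171 (without CONV 7) to 3993 calls (without control 6), 1073 to 2014 higher and 1093 to 1979 lower. Of the genes named and called, 140, the call and sign held for 92 in every one of the 31 alternatives that tested them, no call reversed, and 29 were lost with the offset and 25 when some 1 library was left out. The cause of these losses was not tested. With library totals the calls on Robo4, S1pr1, Chga, Chgb, Flt3, Cd163, Bcl2, Xpc, Brca2, Krt7 and Prom1 were lost, and with limma-voom those on Gsdmc3, Rspo3, Fabp2, Iigp1, Flt3, Brca2, Clec9a and S1pr1. A block on the library number, a fit on pairing, gave 1569 calls (795, 774) and ended 35 of the named calls. Of the 4 same-numbered pairs none correlated over 0.1 (-0.20 to 0.09) and none best with its own number. Whether same-numbered libraries shared a session or batch is not given in the sources used here and was not tested.

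Values near 0 changed sign without being called. Mki67 was -0.073 with the offset. Clu, at -0.00, was 0.034 with DESeq2 or its size factors, 0.013 without the 50 most abundant genes in TMM, 0.0063 without a filter, 0.014 with a surrogate variable, 0.14 with limma-voom or the offset, 0.15 with limma-trend, 0.019 in the 12 libraries alone, 0.066 with the replicate block, and -0.24 (without CONV 7) to 0.34 (without CONV 3) with 1 library left out. The immunoglobulin share difference of 0.018 points was -0.0029 without FLASH 2, -0.0028 without CONV 2 and at most 0.062 (without CONV 7). The simulated fit, with 200 changed genes and 127 calls, missed most 2-fold changes. The real contrast had 3217 calls, so its threshold on unadjusted p was less strict and that recovery does not describe it. A gene that did not pass is still not shown to be equal.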
